A study of Drosophila melanogaster
Mus musculus with 21 samples.

Results

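Mammalian genomes are methylated at CpG by a small set of enzymes, and this account follows their transcripts in mouse embryonic stem cells whose Polycomb complexes were degraded. The members are 8 genes taken by symbol: Dnmt1 and Uhrf1, which keep methylation through DNA replication, Dnmt3a, Dnmt3b and Dnmt3l, which set it up anew, and Tet1, Tet2 and Tet3, which oxidise it. They have 12 entries among the 20633 entries and 19397 symbols of the deposited tables, and where a symbol has several entries, the one with the most untreated reads stands for it. They were taken by name, with earlier results of these data known.

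As background, DNMT1 copies methylation onto the new DNA strand, and UHRF1 binds hemimethylated CpG and brings DNMT1 to it. DNMT3A and DNMT3B methylate sites that carried no mark, and DNMT3L, which has no catalytic activity, stimulates both in embryonic stem cells and germ cells. TET enzymes convert 5-methylcytosine to 5-hydroxymethylcytosine and further oxidised forms, which base excision repair or replication then removes. Polycomb repressive complexes are found mainly at CpG islands that lack DNA methylation.

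Nuclear RNA came from 2 engineered lines on the E14 background, 21 libraries in 7 groups of 3 biological replicates, with Drosophila SG4 cells added as a spike-in. PRC1deg cells carry Tir1 at Rosa26, lack Ring1A in all groups and have RING1B fused to an auxin-inducible degron. They were given 500 µM auxin for 2, 4, 8 or 24 h, or no auxin. PRC2deg cells carry a HaloTag on Pcgf2 and a dTAG degron on SUZ12 in both groups, and were given 100 nM dTAG-13 for 2 h, or none. Whether replicates came from separate clones is not stated in the labels.

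The deposited values are a log2 fold change, treated over untreated, and an adjusted p for each entry, with a mean level of the untreated libraries and no value per library. A spread between replicates can therefore not be shown directly. The standard error given beside a fold change was worked back from the adjusted p. It is an upper limit only if that p came from a Wald test of the deposited fold change, which is not stated. If the fit pulled the deposited values towards 0, it is no such limit, and the words standard error at most below do not hold. Distances from the median in standard errors are descriptions and no tests, and they give the median no error. Over the 8 members and 4 auxin times the worked-back errors lay between 0.167 and 0.269 on the log2 scale. Differences of that size count as within the error. A gene counts as called with an adjusted p below 0.05 and a change of more than 1.5-fold. Because most entries lay above 0 under auxin, each change is also given less a median, that of the 13499 entries holding at least 50 reads in untreated cells. This median was 0.15, 0.40, 0.50 and 0.24 after 2, 4, 8 and 24 h. The 4 auxin comparisons share their 3 untreated libraries.

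Over all entries the mean untreated values sum to 30450536 normalised reads in PRC1deg and 29474239 in PRC2deg, and no depth per library is known. The 6 embryonic stem cell markers (Pou5f1, Sox2, Nanog, Esrrb, Klf4 and Zfp42) stood between 129 and 3585 normalised reads per kilobase in untreated PRC1deg cells, with a sum of 10026. The 4 primitive endoderm markers summed to 14.9, the 4 formative or primed epiblast markers to 154, the 4 trophoblast markers to 62.9, with Cdx2 at 0, and the 4 fibroblast markers to 123, most of it Thy1 at 116. After 24 h of auxin 0 of the 6 stem cell markers, 3 of the 4 formative, 4 of the 4 primitive endoderm, 2 of the 4 trophoblast and 2 of the 4 fibroblast markers were called higher, by the authors' DESeq2 values. Of all tested entries 11.5% were called higher at that time. Only 2 formative, 3 primitive endoderm, 1 trophoblast and 2 fibroblast markers held 50 or more untreated reads. Because the degrons remove protein, transcript levels say nothing on how far RING1B or SUZ12 was lost. Ring1, deleted in PRC1deg by its label, still had 202 untreated reads over the whole entry, and which part was deleted is not given in the sources used here.

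Most members were well above the typical gene before treatment. In untreated PRC1deg cells Tet1 had 786 normalised reads per kilobase of gene body, Uhrf1 264, Tet2 235, Dnmt3l 209, Dnmt1 171, Dnmt3b 113, Dnmt3a 40.6 and Tet3 15.5, where the median of all entries was 12.3. The place of Dnmt3a and Dnmt3l rests on which entry stands for them. The short entry of Dnmt3a had 173 per kilobase in PRC1deg, level with Dnmt1 and above Dnmt3b, and the middle entry of Dnmt3l had 322. Tet1 lay above 99.1% of entries and Tet3 above 53.2%. Per kilobase, Tet1 stood 50.6 times above Tet3 and 3.35 times above Tet2, so the 3 oxidising enzymes differed far more among themselves than Uhrf1 and Dnmt1 did, at 1.54 times. These are the authors' means over 3 libraries with no spread, and neighbours in the order, such as Uhrf1 and Tet2, cannot be separated.

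Untreated PRC2deg cells had the same genes at both ends. Tet1 had 505 normalised reads per kilobase there, Dnmt3l 205, Uhrf1 196, Dnmt3b 189, Tet2 130, Dnmt1 121, Dnmt3a 24.9 and Tet3 11.5, against a median entry of 10.6. The methyltransferase pair Dnmt3b over Dnmt3a had a ratio of 7.59 in PRC2deg and 2.78 in PRC1deg with the long entry of Dnmt3a. With its short entry the ratio was 1.92 in PRC2deg and 0.651 in PRC1deg, so that the order of the pair turns in PRC1deg. Tet1 over Tet3 had 44.0 in PRC2deg and 50.6 in PRC1deg. The lines were normalised apart and sequenced with other kits and read lengths, and no test was made between the lines.

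**Figure D1:**
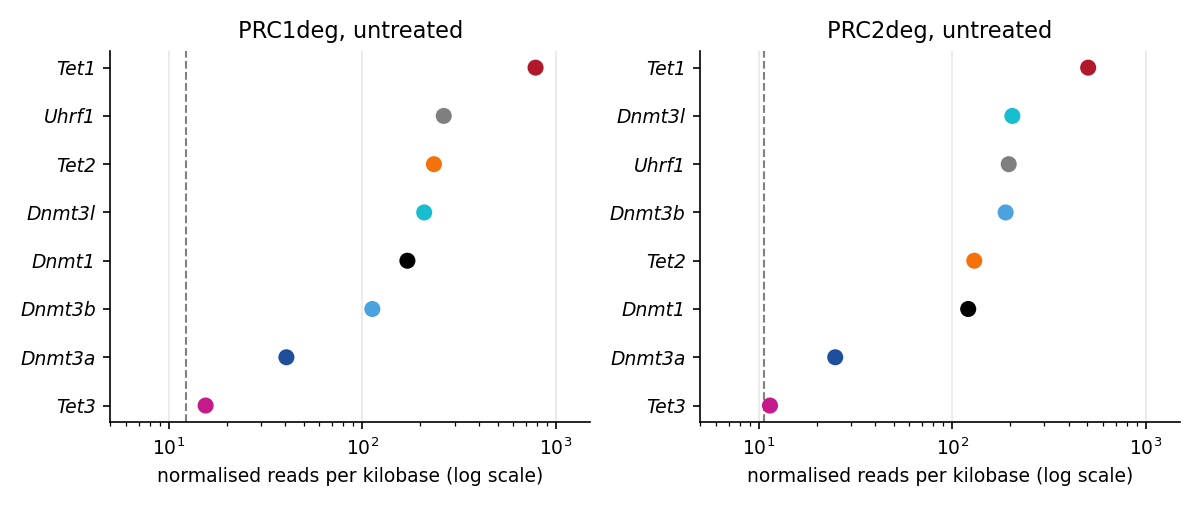
Untreated level of the 8 members, in normalised reads per kilobase of gene body on a log axis, in PRC1deg (left) and PRC2deg (right). Each point is the authors' mean over 3 libraries and the dashed line is the median of all entries. Tet1 is highest and Tet3 lowest of the members in both lines, at 786 and 15.5 in PRC1deg.

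As deposited, the values gave few calls. Of the 8 members, 0 were called higher after 2 h of auxin, when 5.55% of tested entries were called higher. One member, Tet3, was called higher after 4 h, against 16.1% of entries, and 4 after 8 h (Dnmt3a, Dnmt3b, Dnmt3l and Tet3), against 25.7%. After 24 h 1 member, Dnmt3b, was called higher, against 11.5% of entries. None was called lower at any time, where 0.255%, 0.13%, 0.0869% and 0.612% of tested entries were lower at 2, 4, 8 and 24 h. At an unadjusted p under 0.05, worked back from the authors' DESeq2 values, 0, 3, 6 and 4 members passed after 2, 4, 8 and 24 h, among them Tet2 at 24 h as the one below 0. The share of all entries under that p is not given here. Of the 13499 entries with 50 or more untreated reads, 82.4%, 90.6%, 96.7% and 83.6% lay above 0. These counts therefore cannot be read as particular to the members. In these bulk samples fewer cells of a type and less RNA per cell cannot be told apart.

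Less the median, 0 of the 8 members passed 1.5-fold together with the adjusted p at any of the 4 times. Of all tested entries, 5.72%, 9.94%, 10.7% and 10.3% did so in either direction at 2, 4, 8 and 24 h. The adjusted p here is the authors', for a change from 0. The median of the 8 members was 0.24, 0.42, 0.56 and 0.27 after 2, 4, 8 and 24 h, and less the median of entries it was 0.08, 0.02, 0.06 and 0.02. The middle of the group thus lay close to the median gene at each time. Their range from lowest to highest was 0.17 after 2 h, 0.50 after 4 h, 0.75 after 8 h and 1.27 after 24 h on the log2 scale.

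**Figure D2:**
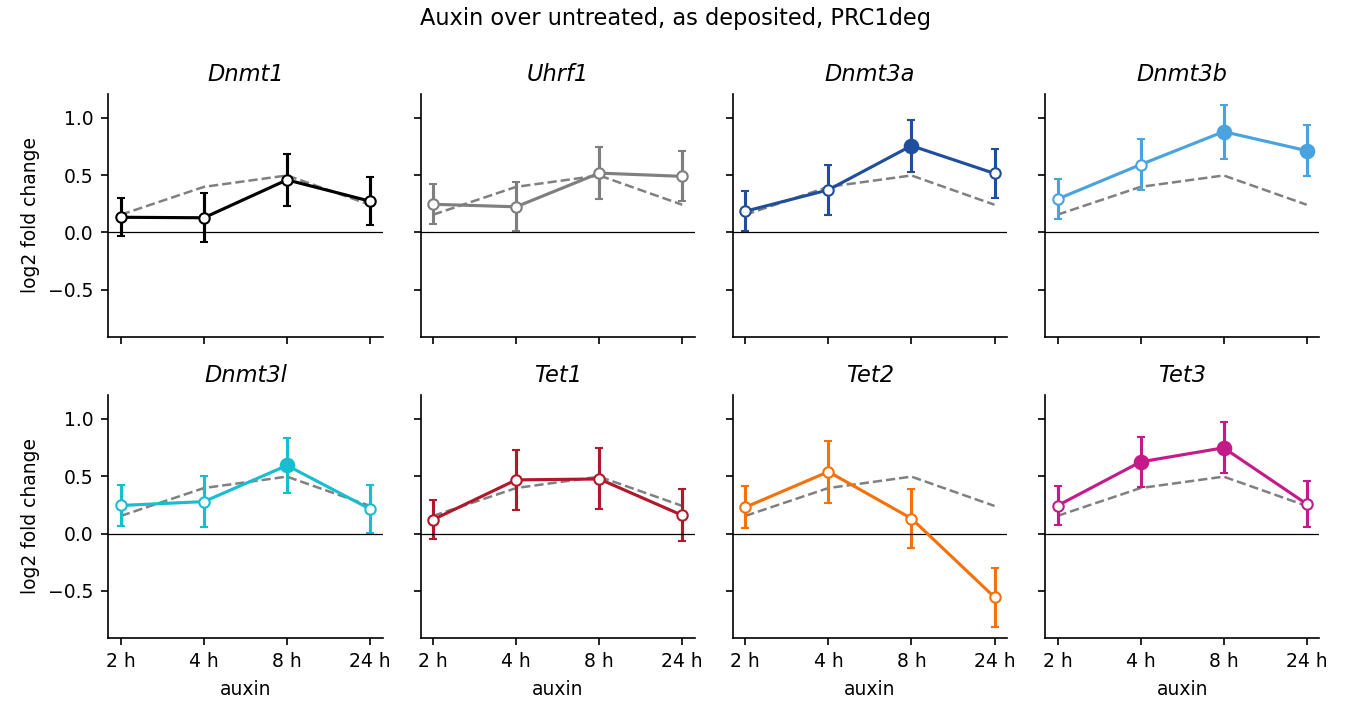
Log2 fold change of each member after 2, 4, 8 and 24 h of auxin over untreated PRC1deg cells, as deposited. Bars are the upper limit of the standard error under the Wald assumption, filled points were called, and the dashed line is the median of the 13499 entries. Dnmt3b reaches 0.88 at 8 h and Tet2 ends at -0.55 at 24 h.

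Neither gene of the maintenance pair passed the test at any time. Dnmt1 had 0.13 after 2 h, 0.13 after 4 h, 0.46 after 8 h and 0.27 after 24 h of auxin in the authors' deposited tables, with adjusted p of 0.73, 0.67, 0.10 and 0.43 by DESeq2. Less the median these were -0.02, -0.27, -0.04 and 0.03, and the value at 4 h lay at -1.27 standard errors. Uhrf1, the gene of the hemimethylated-DNA reader, had 0.25, 0.22, 0.52 and 0.49 in the authors' deposited tables, with adjusted p of 0.60, 0.44, 0.068 and 0.13. Less the median, Uhrf1 was 0.09, -0.17, 0.02 and 0.25, so both genes lay below the median gene at 4 h. At 24 h Uhrf1 was 1.14 standard errors above it.

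The de novo methyltransferase Dnmt3b had the highest change of the 8 at 2, 8 and 24 h, and Tet3 the highest at 4 h. The authors' deposited tables gave Dnmt3b 0.29 ± 0.18 after 2 h, 0.59 ± 0.23 after 4 h, 0.88 ± 0.24 after 8 h and 0.71 ± 0.22 after 24 h of auxin (standard error at most, 3 libraries a group). Their DESeq2 adjusted p were 0.53, 0.053, 0.0021 and 0.017, so that Dnmt3b rose at 8 h, to 1.84-fold, and at 24 h, to 1.64-fold. At 4 h it stood at 1.51-fold and missed the threshold on p. Less the median it was 0.14, 0.19, 0.38 and 0.47, which put it at the 81.3rd, 75.9th, 89.4th and 91.2nd percentile of entries with 50 or more reads. Its distance from the median at 24 h was 2.09 standard errors. Dnmt3c, a rodent-specific near copy of Dnmt3b, has no entry in the tables, so any reads it shares with Dnmt3b cannot be told apart here.

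Dnmt3a rose to 1.69-fold at 8 h. Its log2 values were 0.18, 0.37, 0.76 ± 0.23 and 0.51 ± 0.22 after 2, 4, 8 and 24 h in the authors' deposited tables (standard error at most), with adjusted p of 0.66, 0.20, 0.0075 and 0.11 by DESeq2. Less the median Dnmt3a was 0.03, -0.03, 0.26 and 0.27, and at the 84.3rd and 83.7th percentile at 8 and 24 h. Formative epiblast cells, in which DNMT3A and DNMT3B are known to be abundant, also express Fgf5, Otx2, Pou3f1 and Sox3. Of these 4 markers 3, 4, 3 and 3 were called higher at 2, 4, 8 and 24 h, beside 5.55%, 16.1%, 25.7% and 11.5% of all tested entries. The marker medians were 1.39, 2.44, 2.01 and 1.46. Only 2 of the 4 held 50 or more untreated reads, and the lowest value among the 4 at 24 h was -0.03. The part of these markers in the Dnmt3a and Dnmt3b values was not tested. All 4 primitive endoderm markers were called higher at 4, 8 and 24 h, with a median of 2.31 at 24 h.

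Dnmt3l, the cofactor without catalytic activity, stood close to the threshold. It had 0.25, 0.28, 0.59 ± 0.24 and 0.21 after 2, 4, 8 and 24 h in the authors' deposited tables (standard error at most), with adjusted p of 0.60, 0.34, 0.049 and 0.53 by DESeq2. Its call at 8 h, a 1.51-fold rise, passed both limits narrowly, and its shortest entry, at 0.59 with an adjusted p of 0.055 in the authors' deposited table, did not pass. Less the median Dnmt3l was 0.09, -0.12, 0.10 and -0.03. Between 8 and 24 h its value changed by -0.38, beside a median change of -0.26 over the 13499 entries.

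Among the oxidising enzymes, Tet1 passed the test at no time and lay within 1 standard error of the median gene at all 4. It had 0.12, 0.47, 0.48 and 0.16 after 2, 4, 8 and 24 h in the authors' deposited tables, with adjusted p of 0.76, 0.18, 0.14 and 0.68 by DESeq2. Less the median Tet1 was -0.03, 0.07, -0.02 and -0.08, between -0.362 and 0.274 standard errors. Tet1 had 59310 untreated reads and a standard error of at most 0.27 at 8 h, and Tet3 had 1231 untreated reads and at most 0.22.

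Tet3, the member with the lowest level, rose at 4 and 8 h. The authors' deposited tables gave 0.24 ± 0.17, 0.63 ± 0.22, 0.75 ± 0.22 and 0.26 ± 0.20 after 2, 4, 8 and 24 h (standard error at most), with DESeq2 adjusted p of 0.59, 0.031, 0.0064 and 0.43. Tet3 was thus called higher at 4 h, at 1.54-fold, and at 8 h, at 1.68-fold. Less the median it was 0.09, 0.23, 0.25 and 0.02, at the 83.8th percentile at 8 h and the 52.8th at 24 h.

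Tet2 was the one member with a value below 0 under auxin. It had 0.23 ± 0.18 after 2 h, 0.54 ± 0.27 after 4 h, 0.13 ± 0.26 after 8 h and -0.55 ± 0.26 after 24 h of auxin in the authors' deposited tables (standard error at most), with DESeq2 adjusted p of 0.63, 0.14, 0.67 and 0.16. No time passed the test. At 24 h its fitted level was 0.681 of untreated. Less the median Tet2 was 0.08, 0.14, -0.36 and -0.80. The last is -3.09 worked-back standard errors from the median gene, the farthest of the members at 24 h. That distance is no test, and it gives the median no error. Of the 13499 entries with 50 or more reads, 186 were lower than Tet2 at 24 h, which is the 1.39th percentile, and 961 were lower at 8 h.

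The lower values of Tet2 came after 4 h. Its log2 value changed by -0.41 between 4 and 8 h and by -0.69 between 8 and 24 h, where the median change of the 13499 entries was 0.09 and -0.26. Its change was at the 1.17th percentile of such entries for 4 to 8 h and at the 3.33rd for 8 to 24 h. No error of such a change between times can be had from the tables, and it was not tested. In the labels' description field the untreated, 2, 4 and 8 h libraries share 1 run of S numbers, and the 24 h libraries have S numbers that repeat some of these. What the S numbers stand for is not stated, and anything that goes with them cannot be told apart from the 24 h time.

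**Figure D3:**
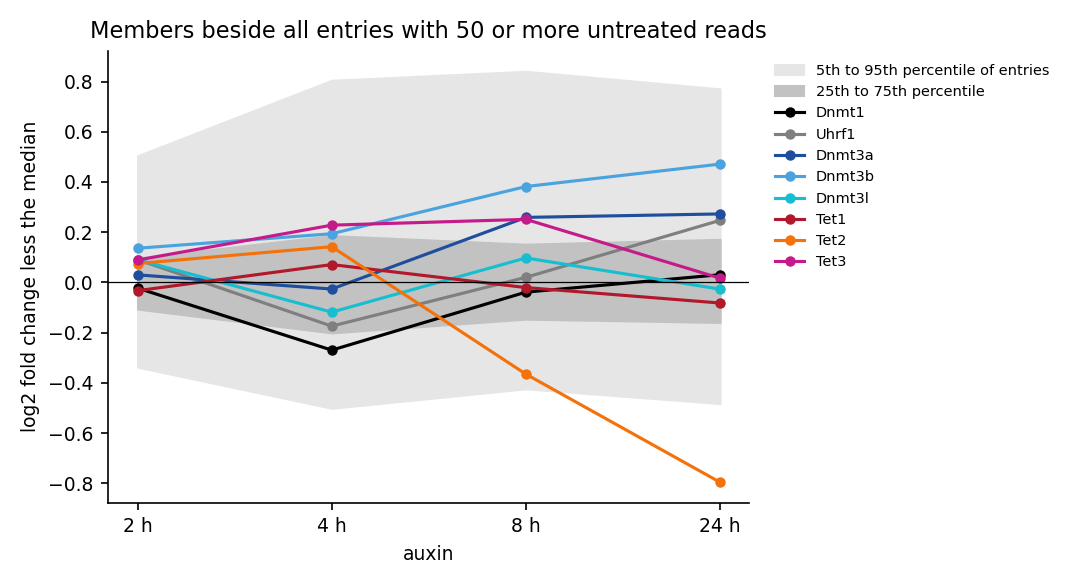
Log2 fold change of each member less the median of the 13499 entries, after 2, 4, 8 and 24 h of auxin. The pale band runs from the 5th to the 95th percentile of those entries and the dark band from the 25th to the 75th. Tet2 leaves the pale band at 24 h, at -0.80, and the other members stay inside it at all 4 times.

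By distance over the 4 auxin values, Dnmt3b and Tet2, the members with the highest and lowest 24 h change, were set beside 12540 other symbols with 50 or more untreated reads. Nearest to Dnmt3b were Jak1, at a Euclidean distance of 0.054, Rpl29 (0.073) and Kctd10 (0.081). Jak1, a cytokine receptor kinase, had 0.25, 0.58, 0.85 and 0.71 after 2, 4, 8 and 24 h in the authors' deposited tables. Nearest to Tet2 were Wisp1 (0.149), Mtus1 (0.167) and Irak3 (0.175). Mtus1 had 0.25, 0.50, 0.23 and -0.43 in the authors' deposited tables, also with its highest value at 4 h and its lowest at 24 h. Such likeness follows from picking the symbols by these same 4 values.

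Dnmt3a is listed with a long entry of 107464 bases and a short one of 22700 bases. As background, the gene has a long form, DNMT3A1, and a form from an internal promoter, DNMT3A2, which predominates in embryonic stem cells, and the short transcript lies inside the long one. In untreated PRC1deg cells the short entry had 3931 normalised reads of the 4361 of the long one, 90.1% of the reads on 21.1% of the length. If the short entry is nested in the long one, the remaining 84.8 kb held 430 reads, 5.07 per kilobase, against 173 per kilobase in the short entry. In untreated PRC2deg cells the remainder had 5.20 per kilobase and the short entry 98.5.

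The long entry of Dnmt3a had slightly higher log2 values than the short one at each time, by 0.036, 0.058, 0.050 and 0.039 at 2, 4, 8 and 24 h. Taken as reads, this leaves the part beyond the short entry at 1.39-fold, 1.76-fold, 2.21-fold and 1.78-fold of untreated, against 1.11-fold, 1.24-fold, 1.63-fold and 1.39-fold for the short entry. These are differences of fitted values with no error, and a small error in either entry is magnified in the remainder. A gap between long and short entries was common. Among 289 symbols whose longest entry is at least 2 times the shortest, the median gap was 0.020, 0.043, 0.021 and -0.009, and Dnmt3a lay between the 54.3rd and 65.7th percentile.

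**Figure D4:**
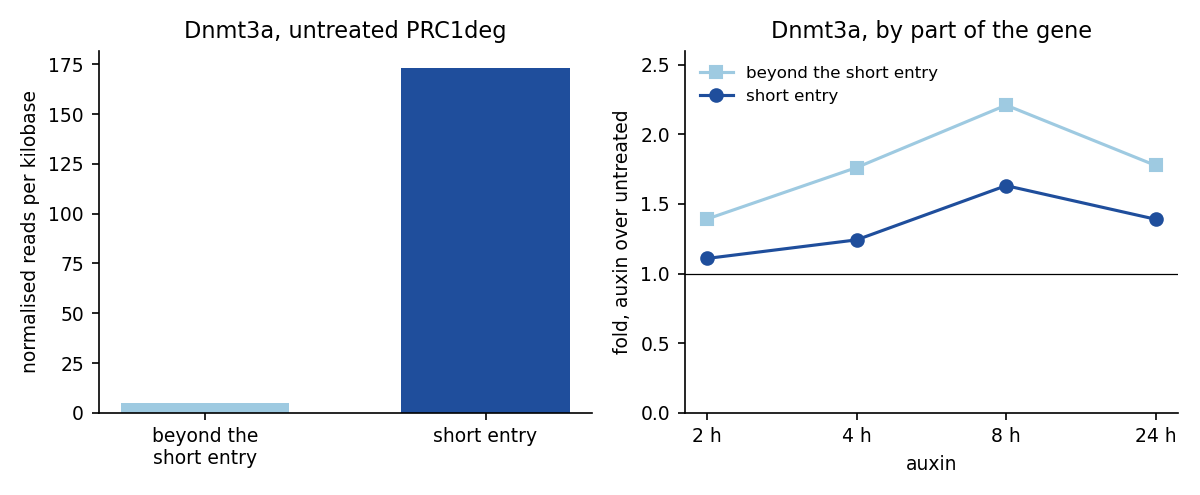
Dnmt3a by part of the gene in PRC1deg, taking the short entry as nested in the long one. Left, normalised reads per kilobase in untreated cells, 5.07 beyond the short entry and 173 in it. Right, fold of auxin over untreated for each part at 2, 4, 8 and 24 h, reaching 2.21 and 1.63 at 8 h, with no error available.

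The other genes of the pathway were counted in 7 lists of 90 measured genes. Of these, 3, 21, 23 and 11 were called higher at 2, 4, 8 and 24 h, which is 3.33%, 23.3%, 25.6% and 12.2%, beside 5.55%, 16.1%, 25.7% and 11.5% of all tested entries. Less the median 3, 12, 8 and 10 were called higher, of which 2, 8, 6 and 7 were on the germline list. In either direction 4.44%, 13.3%, 8.89% and 11.1% of the 90 passed less the median. Of all tested entries 5.72%, 9.94%, 10.7% and 10.3% did. Dppa3, Pcna, Tdg, D2hgdh, Tyms and Tex19.1, also on the lists, were not analysed here. One was called lower, the methyl-CpG reader Zbtb4 at 2 h, at -0.82 in the authors' deposited table (DESeq2 adjusted p = 0.015).

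Of 17 genes listed as partners in maintaining or targeting methylation, 0 were called at any time by the authors' DESeq2 values. They include Uhrf2, Hells, Trim28 and Zfp57, and also Trdmt1, whose product is known to methylate transfer RNA. Their medians were 0.16, 0.51, 0.49 and 0.17 at 2, 4, 8 and 24 h, and 0.00, 0.11, -0.01 and -0.07 less the median. Of 18 genes that excise or repair modified cytosine, 0, 4, 4 and 2 rose, among them Apex1, the abasic site endonuclease, at 0.92 after 4 h and 1.01 after 8 h in the authors' deposited tables (DESeq2 adjusted p = 0.0016 and 0.00038). Gadd45a, a damage-response gene linked to demethylation, had 1.12 after 4 h and 0.76 after 8 h in the authors' deposited tables (DESeq2 adjusted p = 0.00020 and 0.015). Less the median, Gadd45a passed at 4 h and Apex1 at no time.

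Among 8 proteins with a CXXC domain, which binds unmethylated CpG, 1, 2, 4 and 1 rose at 2, 4, 8 and 24 h. Cxxc4, whose product binds TET2 and lowers its protein level, had 1.65, 2.00, 1.70 and 1.05 in the authors' deposited tables, with DESeq2 adjusted p of 0.00051, 7.6e-06, 0.00016 and 0.026, on 26.5 untreated reads. Cxxc4 passed at all 4 times also less the median, and no other gene of its list did. Kdm2b, the CpG island binding subunit of a variant PRC1, had 0.77 after 4 h and 0.88 after 8 h in the authors' deposited tables (DESeq2 adjusted p = 0.017 and 0.0043). Of 9 methyl-CpG readers, 0, 1, 1 and 0 rose, Zbtb33 at 4 h and Mbd1 at 8 h, and neither passed less the median.

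Of 10 TET partners and 2-oxoglutarate enzymes, 0, 2, 1 and 0 rose. These were Lin28a, an RNA-binding protein reported to act with TET1, at 0.82 after 4 h and 1.00 after 8 h, and Sall4 at 0.66 after 4 h in the authors' deposited tables. Less the median, 0 of the 10 passed at any time, Lin28a and Sall4 included. Oga is listed there under its older symbol Mgea5 and was not called. Of 16 genes of methyl donor supply, 0, 2, 3 and 1 rose, and 0, 1, 0 and 1 passed less the median. Mat2a, which makes S-adenosylmethionine, the methyl donor of all 3 active methyltransferases, had 1.10 after 4 h and 0.95 after 8 h in the authors' deposited tables (DESeq2 adjusted p = 0.0027 and 0.0091). Bhmt, a betaine-dependent methionine synthase, had 2.31 after 24 h on 28.4 untreated reads in the authors' deposited table.

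Germline genes whose promoters are silenced by DNA methylation were the list with most calls. Of 12 measured, 2, 10, 10 and 7 rose at 2, 4, 8 and 24 h, and 2, 8, 6 and 7 less the median, with list medians of 0.38, 1.06, 1.01 and 0.95. The list was chosen with earlier results of these data known, so its counts are a description. Tdrd1, a piRNA pathway gene, had 0.85, 1.51, 1.76 and 1.94 after 2, 4, 8 and 24 h, and Slc25a31, an ADP/ATP carrier of germ cells, had 0.67, 1.42, 1.45 and 1.59 in the authors' deposited tables. Tdrd1 was called at all 4 times and Slc25a31 at 4, 8 and 24 h. Several of these genes are also known targets of a variant PRC1 with PCGF6, and DNA methylation itself was not measured.

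**Figure D5:**
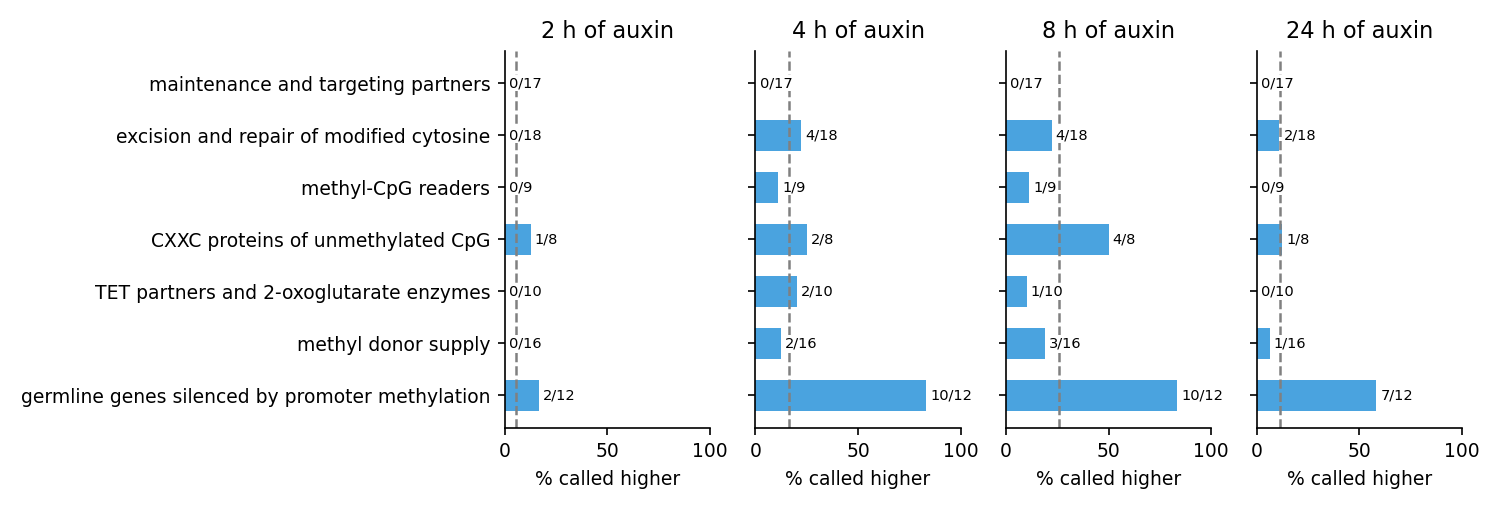
Share of the measured genes of 7 companion lists that were called higher after 2, 4, 8 and 24 h of auxin, in percent, with counts beside the bars. The dashed line is the share of all tested entries, 5.55%, 16.1%, 25.7% and 11.5%. Germline genes silenced by promoter methylation reach 10 of 12 at 4 and 8 h.

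In the PRC2deg line, 2 h of dTAG-13 left 0 of the 8 members called by the authors' DESeq2 values, as 0% of the 19506 tested entries were. The members' log2 fold changes lay between -4.9e-06 and 3.2e-06 in the authors' deposited table, 3 above 0 (Tet1, Tet2 and Tet3) and 5 below, each with an adjusted p of 0.999956. The adjusted values allow at most 975 entries of the table an unadjusted p under 0.05. Every fold change of that table was within 0.000985 of 0, and these values give no usable interval for how much a member could have changed.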

How the data were processed

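Nuclear RNA without ribosomal RNA was sequenced in pairs of 80 bp reads for PRC1deg and 40 bp reads for PRC2deg, per the labels' protocols. Bowtie2, STAR, SAMtools, bedtools and DESeq2 with builds mm10 and dm6 are named in the submitters' processing notes, with no version. Each of 5 tables deposited by the authors has log2 fold changes calibrated to the spike-in, and adjusted p-values, per the tables' own titles and the file headers. The untreated column, headed RPKM by the authors, was read as a signal of mean normalised reads per kilobase, since it sums to 30450536 reads in PRC1deg when multiplied by length in kilobases. The other column deposited by the authors is the length of each entry in bases. Entries were matched between tables by transcript identifier.

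From an adjusted p, p lies between that value times the first and times the last rank of its tie, divided by the number tested. The standard error is the fold change divided by the normal quantile of p, assuming a Wald test of the deposited fold change. Whether the deposited fold changes were pulled towards 0 by the fit is not stated. After 2 h of auxin the worked-back error was 0.157 for Bhmt on 28.4 untreated reads and 0.170 for Tet1 on 59310. It was thus no larger for the gene with few reads. Every fold change after dTAG-13 was within 0.000985 of 0. The Wald assumption may therefore not hold, and the worked-back errors are a rough scale and not firm limits. The bounds on p and the calls were run on simulated fold changes that meet this assumption. The simulation therefore checks the calculation and not the assumption. Calculations used Python 3.11.15 with pandas 2.3.3, scipy 1.17.1 and numpy 2.4.6, and figures used matplotlib 3.10.9.

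The members and lists were chosen with earlier results of these data known. Text names all members, up to 4 called genes per companion list by smallest p, and the nearest 3 symbols of 2 members; 1 gene this rule names is counted in its list but not reported here. The calculation on the parts of Dnmt3a was added after its values were seen. No mouse sequence was used here.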

Additional observations from a re-analysis of the deposited data

How the results depend on the processing

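No paired analysis was possible because the deposited tables hold no values per library, and for the same reason replicates could not be left out in turn and no count test was run. With a fold threshold of 2, 0 members were called at 4, 8 and 24 h, against 1, 4 and 1 as reported. With an adjusted p threshold of 0.01, 0 were called at 4 and 24 h and 3 at 8 h. Less the median of entries with 50 or more reads, 0 were called at 4, 8 and 24 h, and the median of the members was 0.0225, 0.0590 and 0.0240. The shortest entry per symbol, an alternative chosen after seeing the data, gave 3 calls at 8 h. Without a fold threshold, and with the longest entry or that with the highest value per kilobase, the counts at all 4 times were as reported. Other minimums of reads for the median, 10 or 500, moved it by at most 0.021, and the median of all entries by up to 0.074, which took Dnmt3a at 4 h, Dnmt1 and Tet1 at 2 and 8 h, and Dnmt3l at 24 h from below the median to above it. All of these were within 1 standard error of the median.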

Other observations

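The longer of the 2 entries of Dnmt1 is 7265 bases longer than the shorter. In untreated PRC1deg cells it held 11.0 more normalised reads, 0.122% of its total, and in untreated PRC2deg cells 125 more, 1.96%. If the entries are nested, this is 1.52 reads per kilobase in PRC1deg and 17.2 in PRC2deg, beside 198 and 138 in the shorter entry. The lines differ in kit and read length, and the difference was not tested.

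The longest of the 3 entries of Dnmt3l is 7555 bases longer than the middle one and held 18.8 more reads in PRC1deg and 10.1 more in PRC2deg, or 0.422% and 0.232% of its total. Nearly all reads of the gene thus lay in the 13781 bases of the middle entry, at 322 per kilobase in PRC1deg, which would place Dnmt3l second among the members there.

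Trdmt1, formerly Dnmt2, resembles the DNA methyltransferases but methylates transfer RNA. It had 0.10, 0.42, 0.11 and 0.01 after 2, 4, 8 and 24 h in the authors' deposited tables and was not called, with DESeq2 adjusted p of 0.81, 0.25, 0.74 and 0.99. Less the median it was -0.06, 0.02, -0.39 and -0.24, at the 6.26th percentile of entries with 50 or more reads at 8 h.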
